A study of Bos taurus with 6 samples.

Results

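The antioxidant and glutathione genes described here are mainly the enzymes and regulators that remove superoxide and peroxides, keep protein thiols reduced and couple glutathione to reactive compounds. They were chosen by gene symbol: genes of the GPX, PRDX, TXN, SOD, GSTA to GSTZ, MGST and GLRX families, together with CAT, GSR, GSS, GCLC, GCLM, NQO1, NFE2L2 and KEAP1. The symbols also brought in proteins with a thioredoxin fold but other tasks, such as TXNL1, TXNL4A, TXNL4B and TXNDC9, and all counts of members include them. The rule found 47 genes among the 9155 genes that had a probe set with 1 gene symbol, and each gene was represented by the probe set with the highest mean signal. SEPP1 and SEPW1, which the rule also lists, had 0 probe sets under those symbols. The families were not covered in full: GLRX, GSTP1, GSTZ1, GPX8 and TXNIP, which fit the rule, also had 0 probe sets with that symbol alone.

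The arrays measured RNA from the longissimus dorsi, a long muscle of the back, in 3 Japanese Black and 3 Holstein steers, with 1 array per animal. Japanese Black cattle are raised for marbled beef, and Holstein cattle are dairy animals. All 6 steers had been on an energy-rich feeding regimen, so the comparison concerns the breeds under that regimen and holds no steers on another feed. The labels give neither the ages of the animals nor whether any of them were related.

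Superoxide, made mainly by the respiratory chain and by oxidases, is turned into hydrogen peroxide by superoxide dismutases. Catalase, glutathione peroxidases and peroxiredoxins then remove the peroxide. The glutathione and thioredoxin systems return the glutathione peroxidases and peroxiredoxins to their reduced state at the cost of NADPH. The transcription factor NFE2L2, held in check by KEAP1, drives many of these genes when cells meet oxidants, and working muscle relies on them because it makes oxidants during contraction.

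The arrays had a median signal between 48.5 and 54.7 intensity units, and their small number limits the precision of every value below. Of 14 markers of skeletal muscle fibres 11 were measured, and their summed signal was 139941 to 147933 in Japanese Black and 143328 to 143476 in Holstein, so the labelled tissue was borne out by its markers. Japanese Black 3 stood apart, with an upper quartile of 205 against 172 to 181 in the other arrays. The 3′ to 5′ signal ratio of actin, a measure of RNA integrity, was 1.11 to 1.14 in Japanese Black and 1.003 to 1.07 in Holstein. The same ratio for GAPD overlapped between the breeds, at 0.858 to 0.928 in Japanese Black and 0.796 to 0.884 in Holstein. A hybridisation control, BioDn, read 2934 to 3064 in Japanese Black and 3378 to 4394 in Holstein, with the highest value in Holstein 3. The part of these array differences in the results below was not tested. In whole tissue, fewer cells of a type and less RNA per cell cannot be told apart.

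No antioxidant or glutathione gene differed between the breeds at an adjusted p under 0.05. A difference is the Japanese Black mean less the Holstein mean of log2(signal + 16), and the added 16 makes the differences of dim probe sets too small. Of the 47 genes 45 were bright enough to be tested with limma, 0 passed, and their adjusted p lay between 0.347 and 0.990. Among all 18012 probe sets tested 0.0167% passed, and among the 8050 genes at their brightest probe set 0.0248% did. At an unadjusted p under 0.05, PRDX6 was higher in Japanese Black and GSTM3 was lower, against 5.84% of all genes in the higher and 5.42% in the lower direction. The count of members past the adjusted threshold was 1 when Holstein 2 was left out, and that gene was GSTM3; 15 of 18012 probe sets passed in that fit.

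Most of the differences were small, as they were over all genes. The median log2 difference over the 45 genes was 0.066, against -0.0089 over all genes. Between -0.25 and 0.25 lay 28 of the 45, against 5030 of all 8050 genes. A size of 0.5 was exceeded by 4 of the 45, against 773 of the 8050. Of these 4, GSTO1 and GSTM3 exceeded 1, as did 76 of the 8050. The 95% interval lay wholly between -0.5 and 0.5 for 19 of the 45 genes, against 2112 of the 8050. It lay between -1 and 1 for 40, against 7093.

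There were 34 genes with a positive and 11 with a negative difference, or 75.6% positive, against 48.7% of all genes. This balance moved most without Japanese Black 3, when 24 were positive and 21 negative. That was 53.3% positive, against 46.1% of all probe sets in that fit and 51.0% in the main fit. Leaving out any other animal gave from 29 positive and 16 negative (without Holstein 2) to 33 and 12 (without Japanese Black 2). After quantile normalization 26 were positive and 19 negative, or 57.8% positive against 48.8% of all probe sets. Japanese Black 3 was the highest array for 21 of the 45 genes and Holstein 3 the lowest for 14. How often each array was the extreme over all probe sets was not counted. By the mean level of all probe sets Japanese Black 3 was also the highest array, and Holstein 3 the lowest at -0.040. The mean level of the 45 genes in Japanese Black 3 was 0.21 above the mean of all arrays, while all probe sets together were 0.094 above it there. In the other arrays the members' mean level lay between -0.084 and 0.0031.

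**Figure D1:**
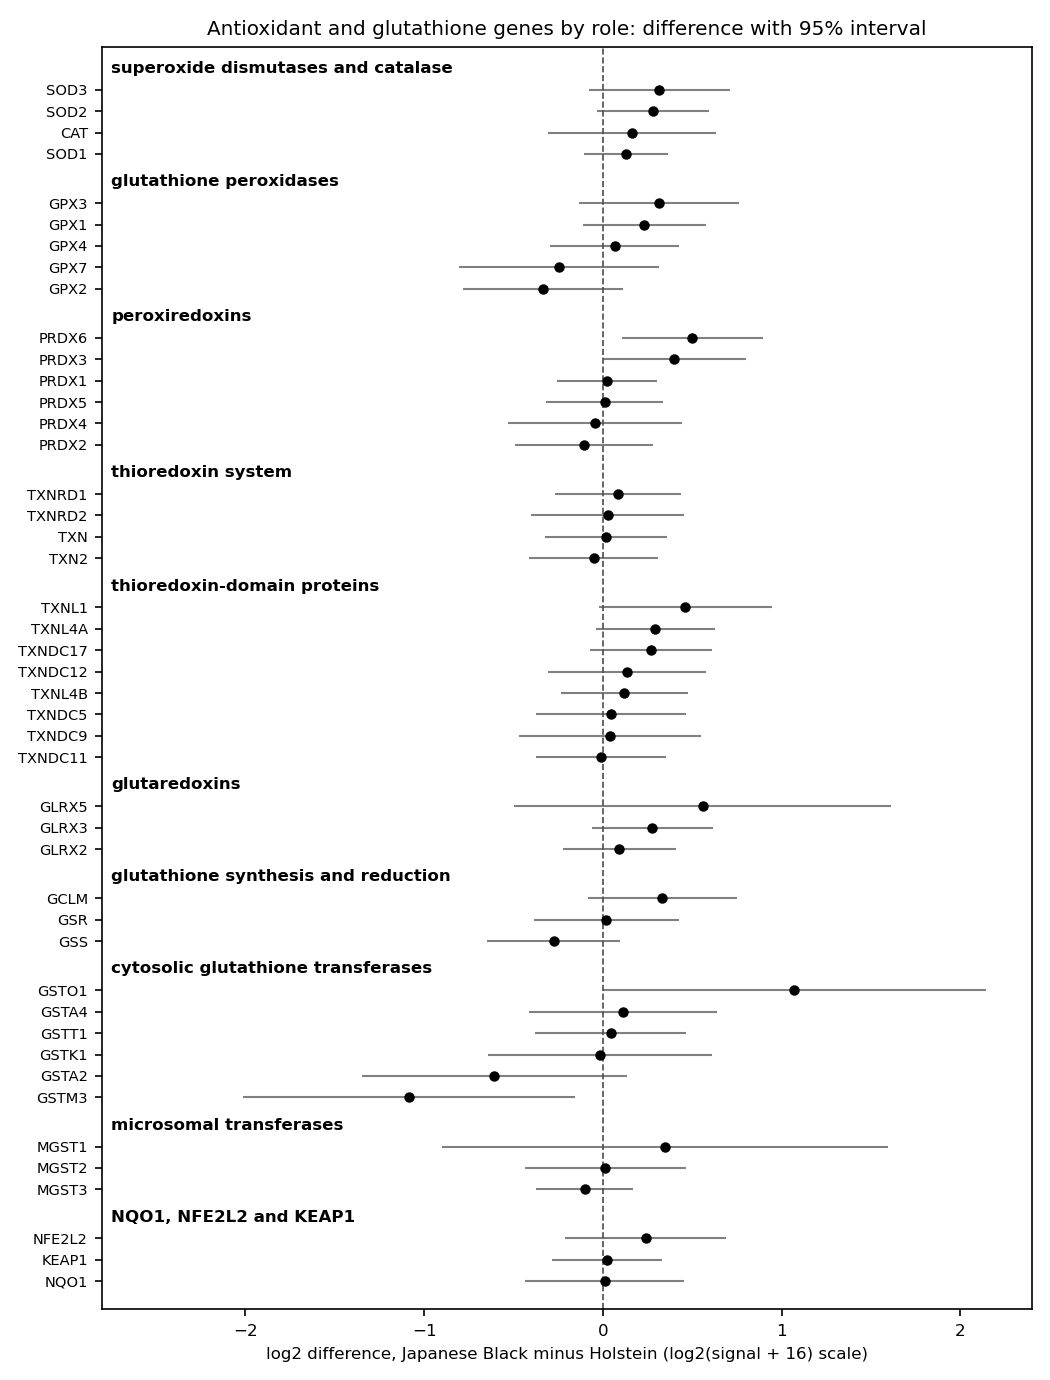
Log2 difference between the breeds (horizontal axis, Japanese Black minus Holstein) for the 45 genes tested, grouped by role; points are limma estimates and bars 95% intervals. PRDX6 and GSTM3 are the genes whose limma interval leaves out 0, and the widest intervals belong to MGST1, GSTO1, GLRX5 and GSTM3.

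The 3 superoxide dismutases and catalase all had positive differences, between 0.13 and 0.32, and 0 of the 4 passed. Catalase did not keep that direction: it was -0.015 without Japanese Black 3 and -0.017 with array weights. SOD2, the manganese enzyme of the mitochondrial matrix, read 3468, 3307 and 4129 in Japanese Black and 2988, 3301 and 2662 in Holstein. The Japanese Black animals lay above the Holstein animals, but the gap between Japanese Black 2 and Holstein 2 was only a few units. Its log2 difference was 0.28 (SE 0.14, unadjusted p 0.0723, adjusted p 0.431), and 0.19 without Japanese Black 3.

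SOD1, the copper and zinc enzyme of the cytosol, read 4568, 4886 and 4894 in Japanese Black and 4309, 4366 and 4431 in Holstein. The breeds did not overlap and each was tight, yet the difference was no more than 0.13 (SE 0.10, 95% interval -0.10 to 0.36), a 1.09-fold difference. SOD1 had the smallest spread within breeds among the 45 genes, 0.042 on the log2 scale. The SE and interval are those of limma, which also draws on the spread of other probe sets of similar signal. Both were wider than the spread of SOD1 alone would give, so the inclusion of 0 does not reflect these animals' spread alone. SOD3, the secreted form bound to the matrix around vessels, was dim, with 25.7, 20.03 and 30.8 in Japanese Black and 14.1, 23.04 and 14.99 in Holstein. CAT, which breaks down hydrogen peroxide in peroxisomes, read 5030, 3672 and 6218 in Japanese Black and 4351, 5261 and 3576 in Holstein. The breeds overlapped widely for catalase, whose difference was 0.16 (SE 0.21).

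The glutathione peroxidases showed no common direction, with 3 positive and 2 negative differences and 0 of 5 past the threshold. GPX1, the selenoenzyme that reduces hydrogen peroxide in cytosol and mitochondria, read 1864, 1933 and 2405 in Japanese Black and 1557, 1858 and 1840 in Holstein. Its breeds were separated by a few units between Japanese Black 1 and Holstein 2, and the difference was 0.23 (SE 0.15, adjusted p 0.523), and 0.12 without Japanese Black 3 or 0.15 without Holstein 1. GPX4, which reduces lipid peroxides within membranes, had a difference of 0.066 (95% interval -0.29 to 0.43). GPX3, the secreted peroxidase of plasma, read 45.96, 63.7 and 62.5 in Japanese Black and 30.98, 53.5 and 45.9 in Holstein, a difference of 0.31 (SE 0.20) with overlapping breeds, and 0.15 without Holstein 1.

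GPX2, best known from the lining of the gut, was the only member with all Japanese Black animals below all Holstein animals. Its signals were 75.4, 75.4 and 46.2 in Japanese Black against 77.0, 83.1 and 97.1 in Holstein, a difference of -0.34 (SE 0.20, adjusted p 0.495) that was -0.15 without Japanese Black 3. GPX7, a peroxidase of the endoplasmic reticulum, had a difference of -0.25 (SE 0.25). In all, 8 members had every Japanese Black animal above every Holstein animal and 1 had every animal below, against 10.2% and 8.96% of all genes. The 8 were SOD1, SOD2, GPX1, GCLM, GLRX3, TXNL1, TXNL4A and TXNDC17.

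Among the 6 peroxiredoxins PRDX6 and PRDX3 had positive differences of 0.40 to 0.50, and the other 4 lay between -0.11 and 0.023. PRDX6, a peroxiredoxin that uses glutathione and also acts on phospholipids, read 2392, 2030 and 2495 in Japanese Black and 1477, 2049 and 1406 in Holstein. Holstein 2 lay level with Japanese Black 2, and the other Holstein animals were clearly lower. The difference was 0.50 (SE 0.17, 95% interval 0.10 to 0.89), or 1.41-fold, with an unadjusted p of 0.0187 and an adjusted p of 0.347, the smallest of any member. Its 2 dimmer tested probe sets gave 0.45 and 0.44, with unadjusted p of 0.0442 and 0.0342. The probe sets of a gene read the same RNA, so these values are not independent of each other.

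PRDX3, the peroxiredoxin of mitochondria, read 3364, 3238 and 4196 in Japanese Black and 2844, 3244 and 2147 in Holstein. Japanese Black 3 was the highest array and Holstein 3 the lowest, and Holstein 2 lay level with Japanese Black 2. The difference was 0.40 (SE 0.18, unadjusted p 0.0506) and 0.34 at the second probe set, and it was 0.23 without Holstein 3. PRDX1 and PRDX2 are the main peroxiredoxins of the cytosol. PRDX1 read 4096, 4047 and 5016 in Japanese Black and 4168, 4331 and 4391 in Holstein, a difference of 0.023 (95% interval -0.25 to 0.30). PRDX2 read 2443, 2174 and 3092 in Japanese Black and 2606, 2430 and 3238 in Holstein, a difference of -0.11 (95% interval -0.49 to 0.28).

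PRDX4, the peroxiredoxin of the endoplasmic reticulum, had a difference of -0.046 (SE 0.21), and PRDX5, found in mitochondria, peroxisomes and cytosol, one of 0.010 (SE 0.14). PRDX2, CAT and GPX1 are also abundant in red blood cells. Of 13 red cell markers 9 were measured. Their summed signal was 4953 to 6161 in Japanese Black and 4541 to 5898 in Holstein, most of it from GYPC and CA2, and SLC4A1 was listed at 0 in 2 Japanese Black animals. Of the 7 markers tested 5 had negative differences, with a median of -0.22, and 0 passed. HBB, a globin gene, had a difference of -0.63 (SE 0.40). ALAS2, of haem synthesis in red cells, and AHSP, a globin chaperone, had every Japanese Black animal below every Holstein animal. HBB, ALAS2 and AHSP were dim, averaging 53.6, 21.5 and 70.4 in Japanese Black and 87.7, 28.2 and 84.65 in Holstein. The positive differences were those of the bright markers GYPC, 0.30 (SE 0.15), and CA2, 0.10 (SE 0.41). GYPC had the smallest unadjusted p of the list in limma, 0.0752. The part of blood in the levels of these enzymes was not tested.

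The 4 tested genes of the thioredoxin system, which returns peroxiredoxins to their reduced form, had differences between -0.052 and 0.085, and 0 passed. TXN, the cytosolic thioredoxin, read 2378, 2522 and 3275 in Japanese Black and 2880, 2562 and 2578 in Holstein. Apart from the high Japanese Black 3 these signals were alike, and the difference was 0.016 (95% interval -0.32 to 0.36). TXN2, the mitochondrial thioredoxin that serves PRDX3, had a difference of -0.052 (95% interval -0.41 to 0.31). Its reductase TXNRD2 had one of 0.026 (SE 0.19), and the cytosolic reductase TXNRD1 one of 0.085 (SE 0.15). TXNRD3, a reductase best known from testis, read 0.44 to 14.8 across the 6 arrays and was too dim to be tested.

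Proteins that carry a thioredoxin fold but have other tasks had 7 positive differences and 1 negative, with 0 of 8 past the threshold. TXNL1, a thioredoxin-like protein bound to the proteasome, read 1351, 1241 and 1324 in Japanese Black and 1129, 1122 and 661 in Holstein. Holstein 3 was far below the other Holstein animals. The difference was 0.46 (SE 0.21, adjusted p 0.410), and 0.21 without Holstein 3. The dimmer TXNL1 probe set gave 0.14.

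TXNL4A, a component of the spliceosome, read 450, 512 and 470 in Japanese Black and 388, 388 and 381 in Holstein. All Holstein animals were nearly equal and all Japanese Black animals higher, and its spread within breeds of 0.065 was smaller than that of all but 1.57% of probe sets. The difference was 0.29 (SE 0.15) with an adjusted p of 0.436 in limma. As for SOD1, the limma SE of TXNL4A was larger than the gene's own spread would give. TXNDC17, a small reductase of cystine, read 805, 751 and 828 in Japanese Black and 586, 737 and 654 in Holstein, a difference of 0.27 (SE 0.15). The 5 remaining genes had differences between -0.011 and 0.14. They were TXNL4B, related to TXNL4A, TXNDC9, a partner of the chaperonin that folds actin and tubulin, and TXNDC5, TXNDC11 and TXNDC12, which work in the endoplasmic reticulum.

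**Figure D2:**
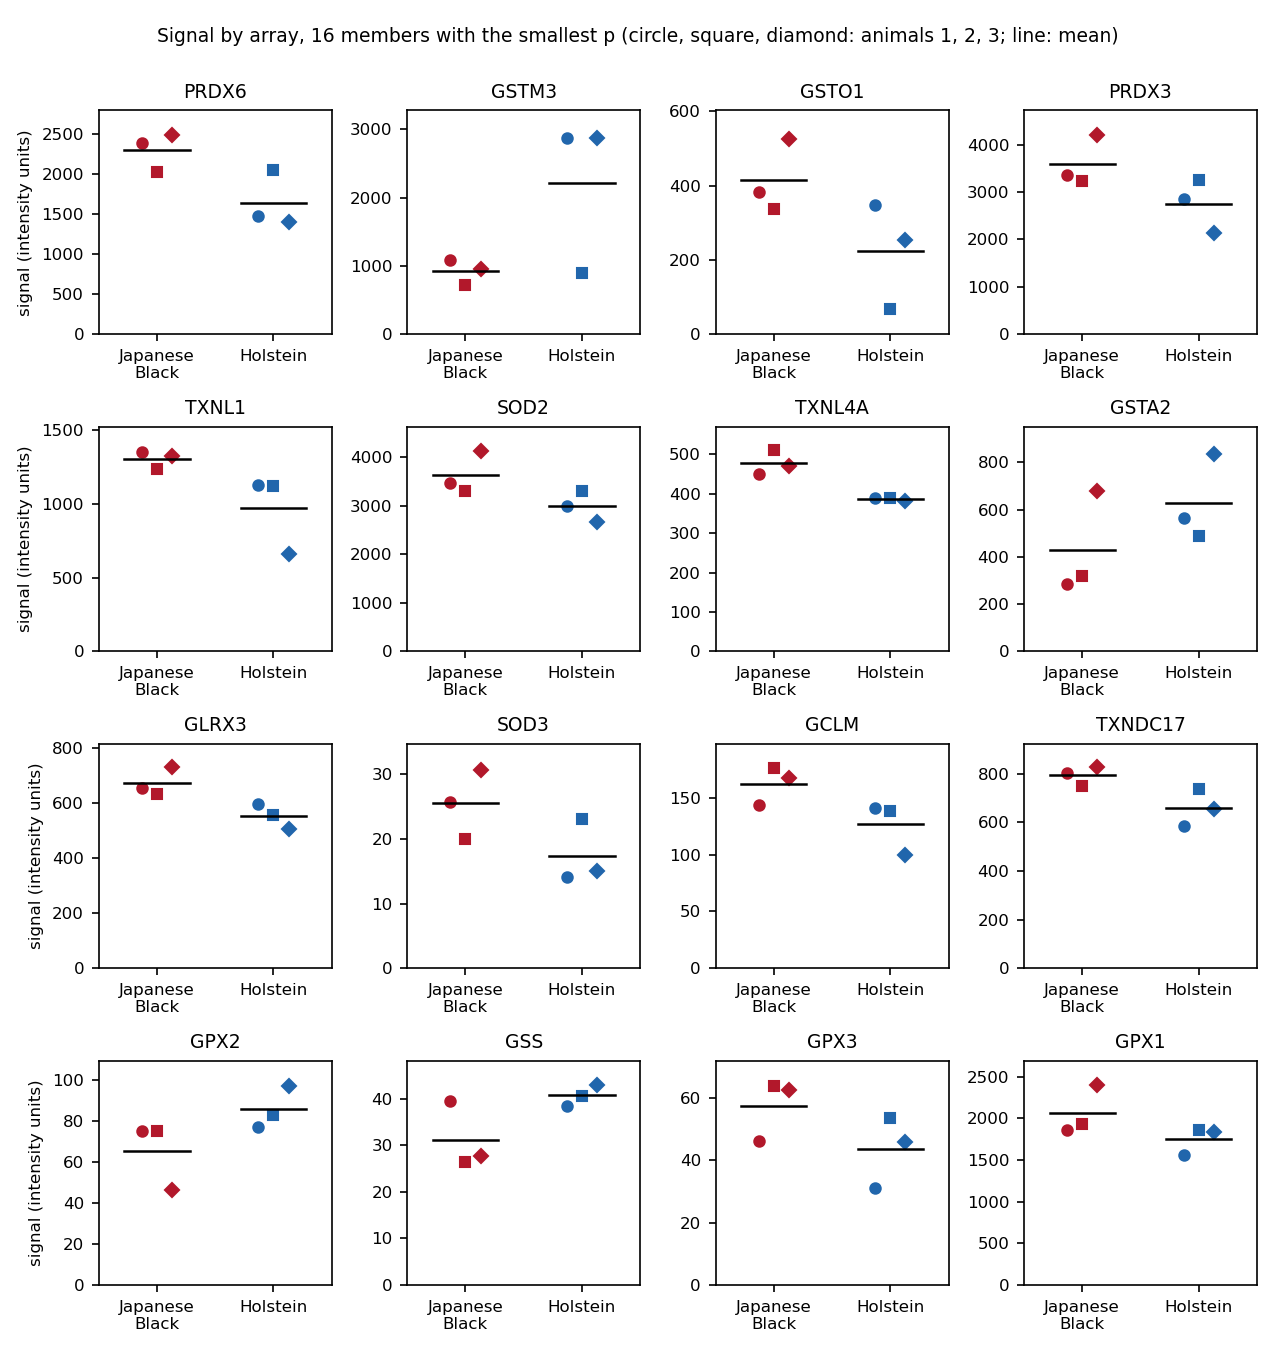
Signal in intensity units (vertical axes, each starting at 0) of the 16 members with the smallest unadjusted p, in Japanese Black and Holstein; each symbol is 1 animal and the line is the mean. For PRDX6, GSTM3 and GSTO1 the plot shows Holstein 2 apart from the other Holstein animals, and for TXNL1 it shows Holstein 3 apart.

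The 3 glutaredoxins measured, which use glutathione to reduce proteins and to handle iron-sulphur clusters, had positive differences, and 0 passed. GLRX was not among them. GLRX3, a glutaredoxin of cytosol and nucleus, read 655, 634 and 730 in Japanese Black and 596, 556 and 507 in Holstein. The breeds did not overlap, and the difference was 0.28 (SE 0.15, adjusted p 0.466). GLRX5, which passes iron-sulphur clusters on in mitochondria, read 1371, 1064 and 1524 in Japanese Black and 1794, 1013 and 371 in Holstein. The Holstein animals held both the highest and the lowest signal. The difference was 0.56 (SE 0.47), and -0.047 without Holstein 3. GLRX2, a mitochondrial glutaredoxin, had a difference of 0.091 (95% interval -0.22 to 0.41).

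The genes that make and recycle glutathione did not share a direction. GCLM, the modifier subunit of the rate-limiting ligase of glutathione synthesis, read 144, 176 and 167 in Japanese Black and 141, 138 and 100.02 in Holstein. Japanese Black 1 exceeded Holstein 1 by only a few units, and the difference was 0.33 (SE 0.18, adjusted p 0.472), and 0.19 without Holstein 3. GCLC, the catalytic subunit, read 9.18, 14.6 and 16.2 in Japanese Black and 19.1, 12.5 and 20.3 in Holstein. That was too dim to be tested, so the subunits could not be compared by a test. GSS, which completes the synthesis, read 39.4, 26.3 and 27.7 in Japanese Black and 38.5, 40.6 and 42.9 in Holstein, a difference of -0.28 (SE 0.16) with Japanese Black 1 among the Holstein animals. GSR, which reduces oxidised glutathione, had a difference of 0.019 (95% interval -0.39 to 0.43).

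The cytosolic glutathione transferases held the widest differences of the whole set, and these came with a wide spread between animals. GSTM3, a transferase of the mu class, read 1092, 729 and 952 in Japanese Black and 2876, 891 and 2877 in Holstein. Holstein 1 and 3 were nearly equal and far above every Japanese Black animal, whereas Holstein 2 lay within the Japanese Black range. The difference was -1.08 (SE 0.41, 95% interval -2.01 to -0.15), or 2.12-fold, with an unadjusted p of 0.0271 and an adjusted p of 0.361. Without Holstein 2 it was -1.64 with an adjusted p of 0.0394. Over the other 5 leave-one-out fits the difference ranged from -1.21 to -0.80 and the adjusted p was between 0.469 and 0.724. GSTM3 was measured by 1 probe set. Transferases of a class resemble each other in sequence, and what else the probes match was not tested.

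GSTO1, the omega class transferase that also reduces dehydroascorbate, read 382, 338 and 526 in Japanese Black and 347, 68.0 and 255 in Holstein. Holstein 2 was far below every other animal, and Holstein 1 lay within the Japanese Black range. The difference was 1.07 (SE 0.47, 95% interval -0.0021 to 2.14) and 0.44 without Holstein 2. GSTA2, of the alpha class, read 286, 321 and 680 in Japanese Black and 564, 490 and 837 in Holstein. The third animal of each breed was its highest. The difference was -0.61 (SE 0.33), its 3 other tested probe sets gave -0.58, -0.57 and -0.47, and leaving out single arrays gave -0.98 (adjusted p 0.363, without Japanese Black 3) to -0.38 (without Japanese Black 1), with -0.39 without Holstein 3.

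The remaining transferases of this group had estimates closer to 0. The group was made by gene symbol, so it includes GSTK1, which is not cytosolic. GSTA4, known for conjugating the lipid peroxidation product hydroxynonenal, had a difference of 0.11 (SE 0.23), GSTT1, of the theta class, 0.043 (SE 0.19), and GSTK1, of mitochondria and peroxisomes, -0.018 (SE 0.28).

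MGST1, MGST2 and MGST3 are transferases embedded in membranes, and 0 of the 3 passed. MGST3 read 4928, 4418 and 5577 in Japanese Black and 5072, 5375 and 5515 in Holstein, a difference of -0.10 (95% interval -0.37 to 0.17) that leaving out single arrays moved between -0.19 and -0.020. MGST2 had a difference of 0.013 (SE 0.20). MGST1 had the widest spread within breeds of the 45 genes, 0.97 on the log2 scale, above that of 99.4% of probe sets. It read 448, 439 and 1736 in Japanese Black and 681, 845 and 282 in Holstein, with Japanese Black 3 the highest and Holstein 3 the lowest, and its difference of 0.35 had an SE of 0.55.

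The fat cell gene FABP4 read 1615, 1726 and 7635 in Japanese Black and 3899, 6646 and 1021 in Holstein. It placed the arrays in the order that MGST1 did, except that Japanese Black 1 and 2 changed places. Of 14 adipocyte markers 12 were measured. Their summed signal was 7496 to 23082 in Japanese Black and 4230 to 17716 in Holstein, and none was listed at 0 in any array. The part of fat cells in the MGST1 signal was not tested. Smooth muscle markers, with 9 of 9 measured, also had their highest sum in Japanese Black 3, with a range of 5051 to 15404 in Japanese Black and 5922 to 11311 in Holstein.

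**Figure D3:**
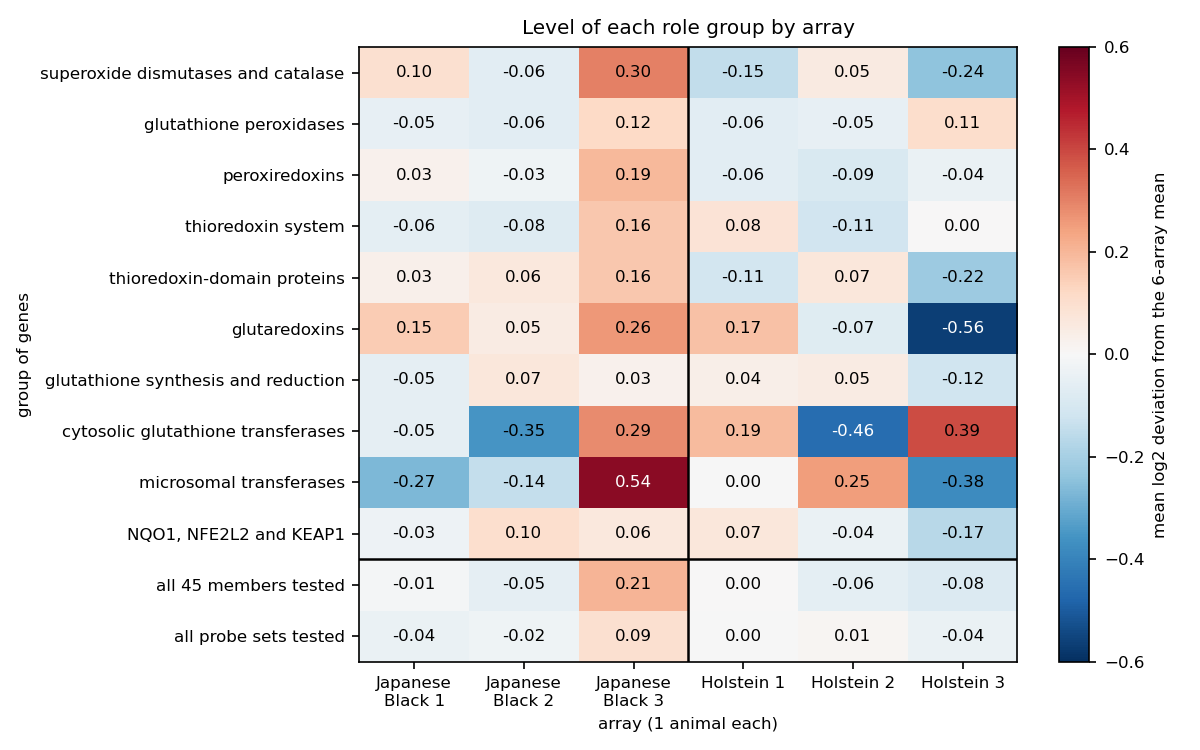
Mean log2 deviation of each role group from its mean over the 6 arrays (colour and printed value), by array, with the 45 genes and all 18012 probe sets below the line. Japanese Black 3 is the highest array for all probe sets and for most role groups. The exceptions are the cytosolic transferases, glutathione synthesis and reduction, and the group of NQO1, NFE2L2 and KEAP1. Holstein 3 is the lowest array for the glutaredoxins at -0.56.

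Of NFE2L2, its inhibitor KEAP1 and its target NQO1, 0 of 3 passed. NFE2L2, the transcription factor that activates antioxidant genes, differed by 0.24 (SE 0.20) at its brightest probe set, which averaged 1117 in Japanese Black and 959 in Holstein. Its other probe set gave -0.14 but was dim, averaging 21.9 in Japanese Black and 26.6 in Holstein. KEAP1, the adaptor that sends NFE2L2 to degradation, read 2446, 2504 and 2055 in Japanese Black and 2124, 2303 and 2455 in Holstein. The breeds overlapped, and the difference was 0.022 (95% interval -0.28 to 0.33), with 0.017 and -0.15 at its other probe sets. NQO1, a quinone reductase and a widely used target gene of NFE2L2, read 456, 474 and 571 in Japanese Black and 630, 407 and 471 in Holstein, a difference of 0.0093 (95% interval -0.43 to 0.45).

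Several probe sets were tested for 10 of the genes. For PRDX6, PRDX3, GSTA2, GLRX3 and TXNL1 all tested probe sets had the same sign. For GPX1, NFE2L2, KEAP1, TXNDC5 and GSTK1 the signs differed, with the second probe set at -0.073 for GPX1, -0.18 for TXNDC5 and 0.16 for GSTK1. The second probe sets of GPX1, NFE2L2 and GLRX3 were dim, averaging 36.3, 21.9 and 19.4 in Japanese Black and 40.1, 26.6 and 14.9 in Holstein. All of these intervals except those of PRDX6 included 0.

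**Figure D4:**
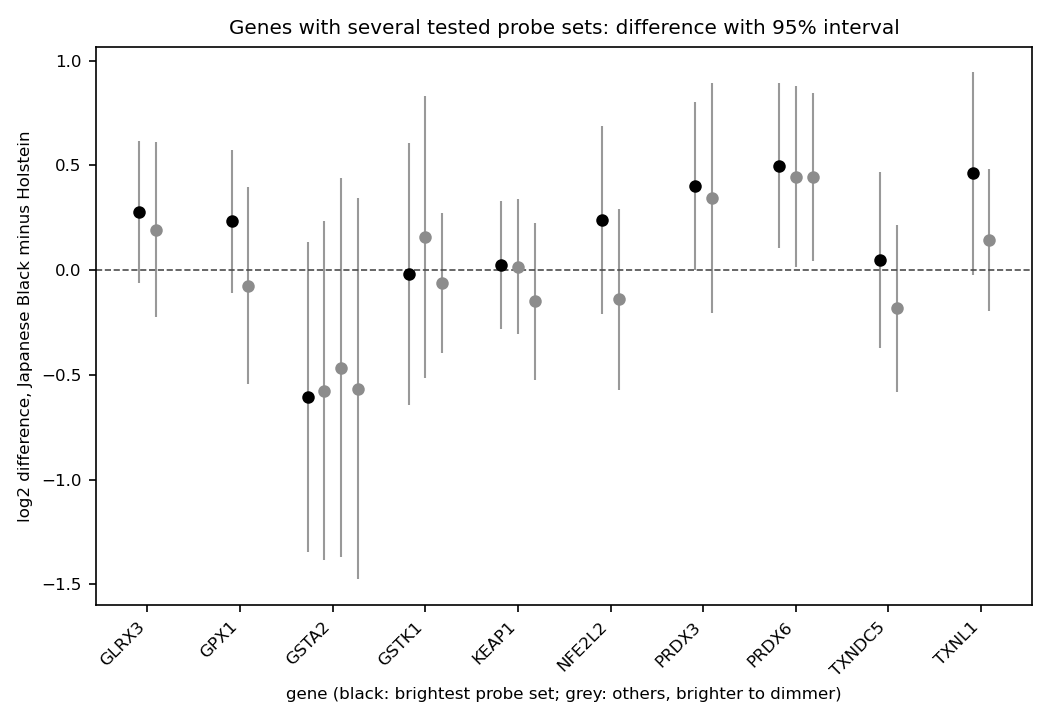
Log2 difference between the breeds (vertical axis, Japanese Black minus Holstein) with 95% interval for each tested probe set of the 10 genes with several; black marks the brightest probe set and grey the others. The 3 probe sets of PRDX6 lie at 0.44 to 0.50 and the 4 of GSTA2 at -0.61 to -0.47, while those of GPX1, NFE2L2, KEAP1, TXNDC5 and GSTK1 fall on both sides of 0.

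Other genes of the same pathways were described from 6 lists with 137 genes, of which 90 were measured and 85 tested. Over these lists 42 differences were positive and 43 negative, the median was -0.0015, and 0 passed. Genes of glutathione transport and breakdown had a median of 0.045 over 12 tested. SLC3A2, a partner of the cystine importer, was first by p with a difference of 0.72 (SE 0.35), and CHAC2, which degrades glutathione, followed with 0.59 (SE 0.32). Genes that supply NADPH had 7 positive and 7 negative differences. ME1, the cytosolic malic enzyme, read 277, 308 and 383 in Japanese Black and 248, 255 and 167 in Holstein, with a difference of 0.51 (adjusted p 0.383), and NADK2, the mitochondrial NAD kinase, had one of 0.41.

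Partners and targets of NFE2L2 had 7 positive and 13 negative differences over 20 tested, with a median of -0.13. NQO2, a quinone reductase related to NQO1, was dim, with 35.6, 39.7 and 39.8 in Japanese Black and 59.1, 66.7 and 75.6 in Holstein, a difference of -0.61 (SE 0.15, adjusted p 0.293). SQSTM1, an autophagy receptor that binds KEAP1, read 5149, 5046 and 4779 in Japanese Black and 6328, 5889 and 7006 in Holstein. The breeds did not overlap for SQSTM1, and the difference was -0.36 (SE 0.11, adjusted p 0.321).

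Among the genes of selenoprotein synthesis and other selenoproteins the median was 0.14 over 14 tested. SELENOH, a selenoprotein of the nucleolus, read 3143, 3160 and 3327 in Japanese Black and 2201, 2202 and 1845 in Holstein. Every Japanese Black animal was above every Holstein animal, and the difference of 0.62 (SE 0.13) had an adjusted p of 0.196, the smallest in the 6 lists. SELENBP1, a selenium-binding protein, had a difference of -0.80 (SE 0.25, adjusted p 0.321), with no overlap.

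Protein repair genes and copper chaperones had a median of -0.014 over 13 tested. MSRA, which repairs oxidised methionine, averaged 2684 ± 54.6 in Japanese Black and 2091 ± 149 in Holstein (SD, n = 3 each), a difference of 0.36 (SE 0.12, adjusted p 0.336). PCMT1, which repairs damaged aspartyl residues, had a difference of 0.33 (SE 0.14). Enzymes that produce oxidants had a median of -0.080 over 12 tested. CYBB, the catalytic subunit of the phagocyte NADPH oxidase, had a difference of 0.46 (SE 0.20), and CYBA, its smaller partner subunit, one of -0.30 (SE 0.16), both at dim probe sets.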

How the data were processed

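Per the labels' protocols, total RNA was cleared of DNA, and cRNA carrying biotin was prepared from it for Affymetrix arrays. The deposited intensity values are linear, 1 per probe set and array; the submitters' processing notes name GCOS 1.1.1 and, beside it, Affymetrix Expression Console 1.1, and the summarising algorithm is not given in the sources used here. Breeds were taken from the labels. The series' design text names a paired t-test, but no label says which animals were paired, so the fit is unpaired and replicate numbers only name animals.

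After 112 control probe sets were left out, 24016 remained. An offset of 16 was added, log2 was taken and the dimmest 25% were dropped. Breed differences were tested two-sided in limma 3.58.1 (R 4.3.3; lmFit, then eBayes with a trend on intensity), and p-values were adjusted by Benjamini-Hochberg across the 18012 probe sets kept. The step was tested on simulated data. The platform annotation named genes; gene identifiers of 47 of 47 members matched RefSeq. No coordinates or sequences are given because no build is named for the table.

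Members, lists and tests were chosen with earlier results of these data known. Signals by array are given for the 16 members with the smallest p, the 8 with the highest mean signal and the brightest of each role group, for genes past the threshold (0), and, chosen after their values were seen, for GCLC, MGST1 and NQO1. Up to 2 genes per pathway list are named by p, and FABP4 and the red cell genes were also chosen after their values were seen. Of the marker lists, endothelial, fibroblast and leukocyte genes had summed signals of 2554 to 3919, 8207 to 13684 and 663 to 1022 in Japanese Black, against 3612 to 4586, 11301 to 12552 and 746 to 1115 in Holstein. Figures were drawn with matplotlib 3.10.9.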

Additional observations from a re-analysis of the deposited data

How the results depend on the processing

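Results were recomputed with each array left out, with other probe sets of a gene, without a filter or with the dimmer 50% dropped, with offsets of 1 or 64, with median centring or quantile normalization, and with array weights, no intensity trend or a plain t-test. No paired analysis was possible because, although the series' design text names a paired t-test, the labels name no pairs of animals. The number of members past the adjusted threshold was 0 under each of these except without Holstein 2, so leave-one-out counts ranged from 0 to 1. At an unadjusted p under 0.05 the number higher in Japanese Black was 2 with an offset of 64 and after quantile normalization, 3 without a filter and with the t-test, 5 after median centring, and 0 to 5 leaving out arrays. The number lower was 2 with array weights, 0 with the t-test and 0 to 2 leaving out arrays. The share of all genes under that p in each of these alternatives was not computed. Whether the counts moved more for the members than for all genes is therefore not known. With array weights 27 differences were positive and 18 negative. The median over members stayed between 0.0086 and 0.13. Of the members with signals given by the naming rule, 7 changed sign under some alternative, GLRX5 among them although its difference was over 0.5. GPX1 was -0.073 at its second probe set, which was dim. CAT was -0.017 with array weights and -0.015 to 0.36 leaving out arrays. PRDX1 was -0.021 with array weights and -0.077 to 0.077 leaving out arrays. KEAP1 was -0.062 after quantile normalization, -0.037 as a mean over probe sets and -0.031 to 0.11 leaving out arrays. TXN was -0.081 after quantile normalization, -0.067 with array weights and -0.12 to 0.11 leaving out arrays. Leaving out arrays gave -0.047 to 1.06 for GLRX5 and -0.25 to 0.014 for PRDX2. The cause of these changes was not tested. The others kept their sign. The pathway lists had 0 genes past the threshold under every alternative run on them, which left out the change of probe set. The signals of SOD3, GSS and GPX3 were dim, and detection calls were not used here.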

Other observations

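SELENOP, the current symbol of SEPP1, is the secreted selenoprotein that carries selenium in plasma. The rule did not take it because the annotation used here gives the current symbol, and it was looked up after the members' values were seen. It read 3286, 3244 and 3375 in Japanese Black and 2939, 3392 and 3168 in Holstein. Holstein 2 was the highest array and Holstein 1 the lowest, so the breeds overlapped. The difference was 0.062 (SE 0.11, 95% interval -0.20 to 0.32) with an adjusted p of 0.835 in limma.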
